A study of Mus musculus with 230 samples.

Results

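The mitochondrial genome contributed 37 of the 53278 endogenous genes in the count table of this study of mouse sensory neurons. They were taken by name, as every gene whose symbol starts with mt-. The set holds 13 protein-coding genes, 2 rRNA genes and 22 tRNA genes, and all 37 have the same start and end in the RefSeq annotation of GRCm38.p6.

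Mitochondrial DNA is transcribed from both strands into long precursor RNAs, which are cut into mRNAs, rRNAs and tRNAs, mostly at the tRNAs that lie between the other genes. The mRNAs encode core subunits of complexes I, III, IV and V of oxidative phosphorylation, while the remaining subunits, and every protein that copies, transcribes or translates mitochondrial DNA, come from nuclear genes. Sensory neurons keep axons many times longer than their cell bodies, and mitochondria supply the ATP for axonal transport and regrowth.

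The study injured the sciatic nerve of mice from a C57BL/6 X CAST/Ei cross at several ages and compared sensory neurons labelled injury with neurons labelled intact. Neurons were picked by hand from dissociated L4 and L5 dorsal root ganglia, and in the single-cell protocol the cytoplasm alone, without the nucleus, went into a SMART-seq2 RNA library. The 18 low-input libraries formed 6 groups of 3 (intact and injured neurons, each at 1 month, 8 months and 12 months of age), while 69 single cells formed 4 groups, with 18 intact and 21 injured cells at 1 month and 8 intact and 22 injured cells at 1 year. All groups share the cross; the side of the ganglia, the time after injury, the sex, the animal behind each library and the number of neurons in a low-input library are not given in the labels used here. The p-values therefore measure the spread between these libraries, which may be technical in part.

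The low-input libraries held 7531967 to 19443627 endogenous counts. A single nuclear feature, CT010467.1, took 29.4% to 93.8% of these, so each share and each CPM value (counts scaled to library size) below is of the endogenous counts outside it, which numbered 770328 to 11587094. Replicate 2 of the intact 12-month group stood apart: it had the 93.8% and the 770328 counts. Its summed level of 10 sensory neuron markers was 5259 CPM against 17395 to 30096 CPM in the other 17 libraries. Mitochondrial genes took 40.5% and Lars2 31.5% of its counts outside CT010467.1. Such shares lower the CPM of every other gene, so the marker level is no separate sign of fewer neuronal transcripts. Summed Atf3 and Sprr1a, genes that injured sensory neurons switch on, came to 349 to 3995 CPM in the 9 injured libraries and to 0 to 49.4 CPM in the 9 intact ones, the order the labels give. The summed 6 markers of satellite glia, the cells that wrap these neurons, were 3167 to 4870 CPM in injured against 224 to 1506 CPM in intact libraries at 1 month. They were 799 to 1679 against 233 to 1218 CPM at 8 months and 289 to 1045 against 108 to 499.8 CPM at 12 months, where Cdh19 was at 0 in the intact group, and their part in the injury results was not tested. Summed fibroblast and vessel markers were low but also higher in injured libraries, at 68.7 to 146 against 8.84 to 17.7 CPM at 1 month. They were 40.9 to 131 against 5.31 to 36.9 CPM at 8 months and 69.2 to 120 against 0 to 57.1 CPM at 12 months. Immune markers were higher at 8 months alone, Schwann cell markers overlapped at each age and red blood cell markers were lower at 1 and 12 months. Their part was not tested. The share of CT010467.1 also moved with injury, at 35.7% to 39.8% in injured against 40.4% to 45.3% in intact libraries at 1 month, 41.6% to 59.7% against 65.7% to 68.2% at 8 months and 29.4% to 39.04% against 64.2% to 93.8% at 12 months, and its part was not tested either. The injured libraries had more genes detected at 8 months (15396 to 18326 against 13031 to 14765) and at 12 months (18646 to 20128 against 10778 to 15198). At 1 month the groups overlapped. ERCC spike-ins took 1.23% to 4.09% of all counts in injured against 15.2% to 22.9% in intact libraries at 12 months, with overlap at 1 and 8 months. The part of these differences in the injury results was not tested. Counts of Y-linked genes were 0 in all 6 libraries of 12 months and 149 to 725 in the other 12, so at 12 months age and sex cannot be told apart.

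Mitochondrial RNA was mostly rRNA. Over the 18 libraries the set held 2488746 counts, of which the 2 rRNA genes took 74.2%, the 13 mRNA genes 25.7% and the 22 tRNA genes 0.0239% (596 counts). The 16S rRNA gene mt-Rnr2 (positions 1094 to 2675 of the mitochondrial chromosome, plus strand) held 69.4% of all mitochondrial counts and the 12S rRNA gene mt-Rnr1 (70 to 1024, plus strand) held 4.86%. Per kb of exon, the median level over libraries was 9864 CPM for mt-Rnr2, 949 CPM for mt-Rnr1 and 2001 CPM for mt-Co1 (5328 to 6872, plus strand), the catalytic subunit of complex IV and the most abundant mRNA.

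The other well-covered mRNAs were those of complex III and complex I. On the same scale per kb, the median level was 636 CPM for mt-Cytb (14145 to 15288, plus strand), the cytochrome b of complex III. Among complex I subunits it was 799.8 CPM for mt-Nd1 (2751 to 3707, plus strand) and 518 CPM for mt-Nd5 (11742 to 13565, plus strand). It was 315 CPM for mt-Nd4 (10167 to 11544, plus strand) and 235 CPM for mt-Nd2 (3914 to 4951, plus strand). The only mRNA gene of the minus strand, mt-Nd6 (13552 to 14070), another complex I subunit, had a median of 152 CPM per kb. Counting did not use strand, and mt-Nd6 shares 14 bases with mt-Nd5.

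The remaining 6 mRNA genes were almost without counts, and they lie side by side. From mt-Co2 to mt-Nd4l (7013 to 10173) the 18 libraries together held 2 counts for mt-Co2 and 21 for mt-Co3, both of complex IV, 0 for mt-Atp8 and 3 for mt-Atp6, both of the ATP synthase, and 116 for mt-Nd3 and 16 for mt-Nd4l, both of complex I. These 158 counts were 0.0247% of the mitochondrial mRNA counts, while the flanking genes mt-Co1 and mt-Nd4 had 307111 and 44341. The single cells gave the same picture, with 652 of 2909414 mitochondrial mRNA counts (0.0224%) in these 6 genes and none in 35 of 69 cells. In the same annotation, 7 nuclear features on chromosome 1 (24611535 to 24616197, minus strand) run parallel, gene by gene at a constant offset, to positions 6381 to 11043 of the mitochondrial chromosome. They span 99.0% to 99.9% of mt-Co2, mt-Atp6, mt-Co3, mt-Nd3 and mt-Nd4l but 31.8% of mt-Co1 and 63.6% of mt-Nd4. These nuclear features held 238 counts over the 18 libraries, among them 155 for Gm28439, the one parallel to mt-Nd4. A further 3 features on chromosome 2 (22587291 to 22590533, minus strand) run parallel to positions 4442 to 7684, cover all of mt-Co1 and 49.1% of mt-Nd2, and held 68 counts. Fragments that map to several places were not counted, per the file headers, so a level near 0 of the 6 genes does not show absence of their RNA; the part of multiple mapping was not tested.

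**Figure D1:**
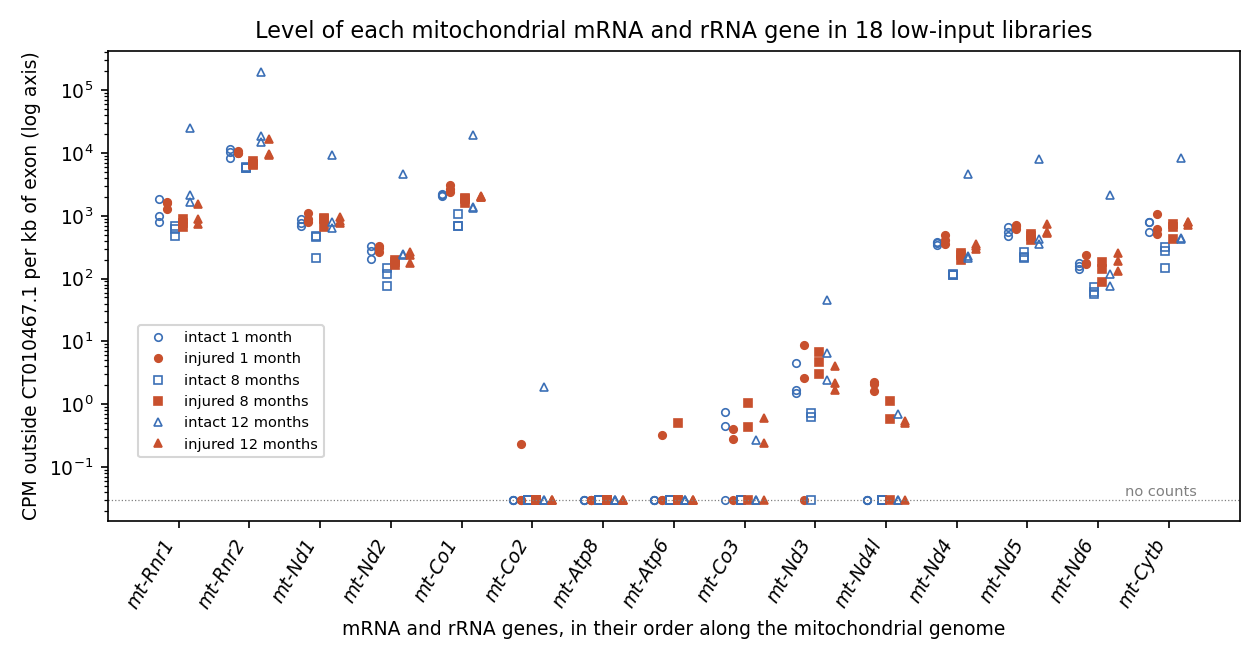
Level of each mitochondrial mRNA and rRNA gene in the 18 low-input libraries (CPM outside CT010467.1 per kb of exon, log axis), in genome order; each point is 1 library, open blue for intact and filled red for injured neurons (circles 1 month, squares 8 months, triangles 12 months), and libraries without counts sit on the dotted line. The 6 genes from mt-Co2 to mt-Nd4l lie far below their neighbours in every group, and replicate 2 of the intact 12-month group is the highest point of each of the other 9 genes.

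Averaged over the 3 ages and without the library that stood apart, 6 of the 8 mitochondrial mRNAs tested rose after injury. Neither rRNA passed the test in that fit. With that library no member passed for the average, while at 12 months 3 passed, all lower after injury. Allowing for replicate number brought the 6 called without that library to 2. The mitochondrial mRNA share of counts was 0.653%, 0.685% and 0.689% in the intact and 0.709%, 0.877% and 0.862% in the injured libraries at 1 month. At 8 months the values were 0.327%, 0.208% and 0.254% in intact against 0.543%, 0.630% and 0.541% in injured libraries. At 12 months the intact libraries had 0.449%, 7.50% and 0.468% and the injured ones 0.709%, 0.639% and 0.661%. The injured libraries were above all intact ones at 1 and 8 months, and at 12 months above both intact libraries other than replicate 2. The largest separation was at 8 months, where the means were 0.572% ± 0.0511 (SD, n = 3) and 0.263% ± 0.0603 (SD, n = 3).

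The rRNA share did not follow the same order. It was 1.41%, 1.75% and 2.00% in intact and 1.73%, 1.70% and 1.83% in injured libraries at 1 month, with overlap. At 8 months it was 0.993%, 0.979% and 0.978% against 1.24%, 1.12% and 1.09%, higher in injured libraries without overlap. At 12 months it was 3.10%, 33.03% and 2.53% against 2.81%, 1.64% and 1.53%, and the groups overlapped. The ratio of rRNA to mRNA counts was 2.15, 2.56 and 2.91 in intact against 2.44, 1.94 and 2.12 in injured libraries at 1 month. It was 3.03, 4.72 and 3.85 against 2.29, 1.78 and 2.01 at 8 months, and 6.90, 4.403 and 5.40 against 3.96, 2.56 and 2.32 at 12 months. The injured libraries were lower without overlap at 8 and 12 months, replicate 2 of the intact 12-month group included, and the groups overlapped at 1 month. No p is given for these sums and ratios, which are descriptions over the members; the genes were tested one by one. In these libraries, the number of cells of a type, the number of mitochondria in a cell and the RNA of each mitochondrion cannot be told apart.

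**Figure D2:**
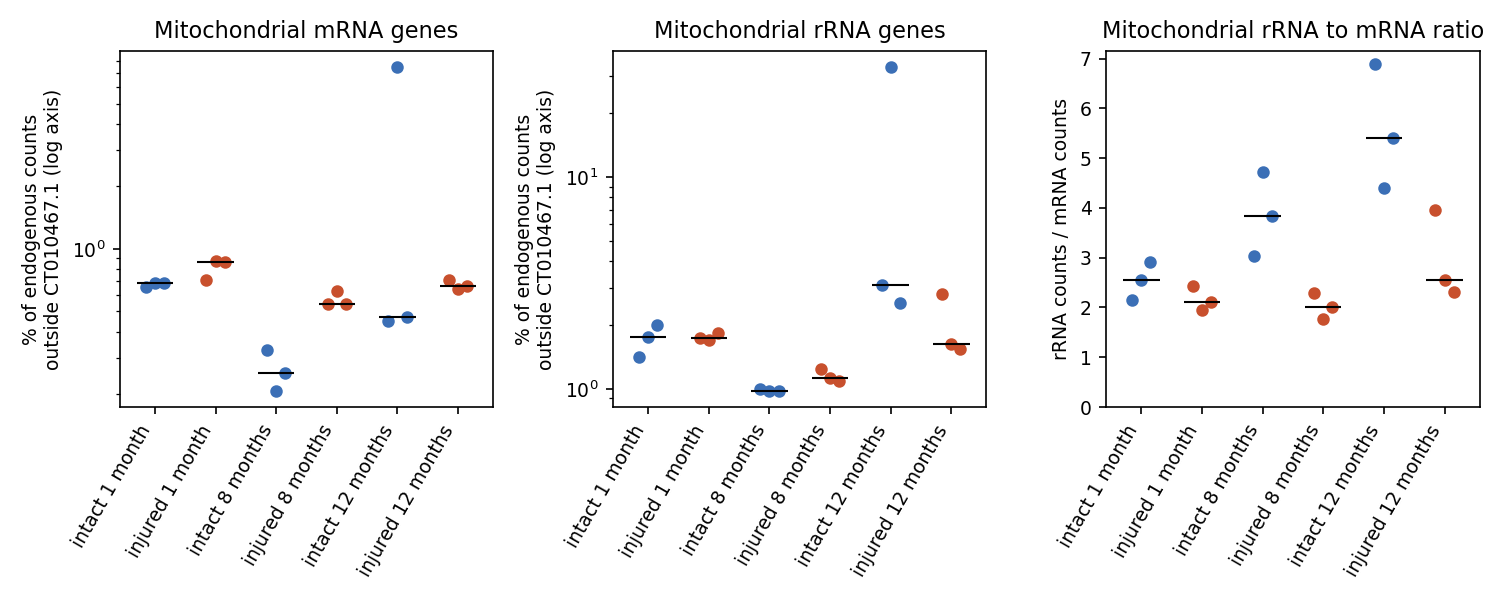
Share of counts outside CT010467.1 taken by the 13 mitochondrial mRNA genes and by the 2 rRNA genes (log axes), and the ratio of rRNA to mRNA counts (linear axis from 0), per library in the 6 low-input groups; each point is 1 library, blue for intact and red for injured neurons, and the line is the group's median. The ratio lies between 1.78 and 3.96 in injured and between 2.15 and 6.90 in intact libraries.

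Gene by gene, 11 of the 37 genes had enough counts to be tested: 8 mRNA genes, both rRNA genes and the tRNA gene mt-Tp; the other 26 did not pass the filter on low counts. In edgeR's quasi-likelihood test over all 18 libraries, 0 of the 11 passed a Benjamini-Hochberg adjusted p of 0.05 for injury averaged over the 3 ages, where 878 of 14212 genes (6.18%) did. There were 3 members with an unadjusted p below 0.05, and DESeq2 also called 0 but gave no adjusted p for 9 of the 11. All 11 log2 changes were negative in that fit, from -1.38 to -0.11, with a median of -0.89 beside 0.03 over all genes. Without replicate 2 of the intact 12-month group, 8 of the 11 were positive, their median was 0.59 beside 0.06 over all genes, and 6 were called, all mRNA genes and all higher after injury, beside 1462 of 14733 genes (9.92%) called in either direction. With the replicate number as a block, 2 were called in place of 6, beside 296 of 14733 genes in place of 1462. With the block over all 18 libraries 7 of the 11 were positive and 0 were called, beside 329 of 14212 genes. The sign of the averaged change thus turned with this library and with the block, and both fits without a block are given for each gene below.

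The 6 genes called without that library were mt-Co1, mt-Nd4, mt-Nd5, mt-Nd6, mt-Cytb and mt-Nd1. Their log2 changes lay between 0.53 and 0.78, or 1.44-fold to 1.71-fold. Among the other mRNA genes tested, mt-Nd2 differed by 0.24 ± 0.15 (SE, edgeR adjusted p = 0.309) and mt-Nd3, with 116 counts in all, by 1.05 ± 0.71 (SE, adjusted p = 0.376). Over 18 libraries the values were -1.26 ± 0.59 (SE, adjusted p = 0.242) and -0.11 ± 1.61 (SE, adjusted p = 0.985). The 2 rRNA genes differed by -0.10 ± 0.12 (SE, mt-Rnr2, edgeR adjusted p = 0.674) and -0.05 ± 0.18 (SE, mt-Rnr1, adjusted p = 0.894), and over 18 libraries by -1.38 ± 0.52 (SE, adjusted p = 0.138) and -1.38 ± 0.55 (SE, adjusted p = 0.161).

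For mt-Co1, the complex IV subunit that reduces oxygen, the intact libraries held 3193, 3409 and 3301 CPM and the injured ones 3755, 4086 and 4761 CPM at 1 month. At 8 months the values were 1623, 1048 and 1079 CPM against 2493, 3005 and 2888 CPM. At 12 months they were 2022, 30034 and 2147 CPM against 3091, 3135 and 3091 CPM. The injured libraries were higher without overlap at 1 and 8 months, and at 12 months they were above 2 of the 3 intact libraries and below replicate 2. The averaged injury change was -0.69 ± 0.54 (SE, log2, edgeR adjusted p = 0.511) over all 18 libraries and 0.68 ± 0.11 (SE, adjusted p = 0.00171) without replicate 2.

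For mt-Cytb, which carries the quinone sites of complex III, levels at 1 month were 901, 916 and 626 CPM in intact and 595, 1236 and 709 CPM in injured libraries, a full overlap. At 8 months they were 364, 167 and 313 CPM against 746, 849 and 492 CPM. At 12 months they were 480.1, 9377 and 509 CPM against 818, 902 and 917 CPM. The 8-month groups did not overlap, and at 12 months the intact libraries other than replicate 2 were below all injured ones. The averaged change was -0.78 ± 0.59 (SE, edgeR adjusted p = 0.503) in 18 libraries and 0.72 ± 0.19 (SE, adjusted p = 0.0246) in 17.

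The complex I genes mt-Nd4 and mt-Nd5, which encode proton-pumping subunits of the membrane arm, moved alike. The values of mt-Nd4 were 532, 499 and 469 CPM in intact against 491, 675 and 571 CPM in injured libraries at 1 month. They were 160.1, 155 and 157 against 329, 351 and 274 CPM at 8 months, and 288, 6428 and 315 against 485, 411 and 457 CPM at 12 months. Those of mt-Nd5 were 871, 997 and 1210 against 1117, 1263 and 1291 CPM at 1 month. They were 483, 384 and 407 against 759.6, 933 and 877 CPM at 8 months, and 771, 14402 and 643 against 1364, 956 and 996 CPM at 12 months. For both genes the groups overlapped at 1 month, although within the 3 pairs of equal number the injured library was higher in 3 for mt-Nd5 and in 2 for mt-Nd4. The groups were apart at 8 months, and at 12 months the injured libraries stood between replicate 2 and the other intact libraries. In 17 libraries mt-Nd4 rose by 0.59 ± 0.11 (SE, log2, edgeR adjusted p = 0.00344) and mt-Nd5 by 0.63 ± 0.12 (SE, adjusted p = 0.00367). In 18 libraries the changes were -0.97 ± 0.59 (SE, adjusted p = 0.387) and -0.91 ± 0.58 (SE, adjusted p = 0.416).

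For mt-Nd1, the complex I subunit next to the quinone site, levels were 669, 729 and 849 CPM in intact against 760.1, 1069 and 859 CPM in injured libraries at 1 month, and 459, 204 and 433 against 836, 883 and 636 CPM at 8 months. At 12 months they were 619, 8898 and 771 against 916, 733 and 802 CPM, where the groups overlapped even without replicate 2. For the minus-strand gene mt-Nd6 they were 74.4, 83.4 and 92.2 against 92.1, 121.9 and 87.5 CPM at 1 month. They were 29.7, 38.4 and 31.5 against 96.5, 73.2 and 45.8 CPM at 8 months, and 61.3, 1131 and 40.2 against 134.2, 68.8 and 100.2 CPM at 12 months. Both were higher in all injured libraries at 8 months. In 17 libraries mt-Nd6 rose by 0.78 ± 0.18 (SE, edgeR adjusted p = 0.0147) and mt-Nd1 by 0.53 ± 0.15 (SE, adjusted p = 0.0370), and in 18 libraries both changed by -0.79 (adjusted p = 0.508 and 0.444).

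The complex I gene mt-Nd2 was the exception among the well-covered mRNAs. Its levels were 284, 212 and 339.9 CPM in intact against 280.1, 318 and 342 CPM in injured libraries at 1 month and 153, 78.6 and 122 against 171, 207 and 193 CPM at 8 months. At 12 months they were 246, 4728 and 258 against 276, 185 and 242 CPM. The groups were apart at 8 months alone. For mt-Nd3, another complex I subunit, the libraries held 3, 18 and 4 counts in intact against 6, 19 and 0 in injured neurons at 1 month. They held 1, 0 and 1 against 7, 14 and 6 at 8 months, and 4, 12 and 4 against 9, 4 and 4 at 12 months. Its 8-month groups did not overlap, with an edgeR change of 3.25 ± 1.32 (SE, log2, adjusted p = 0.245) in 17 libraries that depends on these few counts.

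The rRNA genes showed another order. For mt-Rnr2, the large-subunit rRNA, levels were 13306, 16586 and 18280 CPM in intact against 15705, 15790.0 and 16752 CPM in injured libraries at 1 month. They were 9272, 9337 and 9189 against 11579, 10555 and 10150 CPM at 8 months, and 28953, 306694 and 23701 against 26573, 15504 and 14626 CPM at 12 months. For mt-Rnr1, the small-subunit rRNA, they were 758, 959.5 and 1760.4 against 1592, 1239.8 and 1511 CPM at 1 month. They were 657, 455 and 593 against 842, 638 and 737 CPM at 8 months, and 2041, 23609 and 1601 against 1486, 852 and 709 CPM at 12 months. The injured libraries were above the intact ones for mt-Rnr2 at 8 months and below all 3 intact ones for mt-Rnr1 at 12 months. The ratio of mt-Rnr2 to mt-Rnr1 counts ranged from 9.86 to 20.6 and, at 12 months, was 17.9, 18.2 and 20.6 in injured against 14.2, 12.99 and 14.8 in intact libraries.

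Taken one age at a time, 0 of the 11 genes were called at 1 month, where 33 of 14212 genes (0.232%) were. Without replicate 2 of the intact 12-month group it was again 0, beside 27 of 14733 genes (0.183%). Within the 3 pairs of equal number, which were taken as pairs at this age alone, the injured library was higher in 3 of 3 for mt-Co1, mt-Nd1 and mt-Nd5, in 2 for 6 members and in 1 for mt-Rnr2 and mt-Tp. With the block, 0 members were called at 1 month over 18 or 17 libraries. Fitted within pairs over the 6 libraries of 1 month alone, 0 of 10 members tested were called, none with an unadjusted p below 0.05, beside 43 of 12846 genes. None of the 11 had an unadjusted p below 0.05 in either fit without the block, and DESeq2 called 0 over 18 libraries, again with no adjusted p for 9. At 8 months 0 members were called over all libraries, with 136 genes (0.957%) called in all, no member with an unadjusted p below 0.05, and 0 called by DESeq2 with the same gaps. Yet 10 of the 11 members were higher in every injured than in every intact library on the TMM scale (edgeR's trimmed mean scaling) at that age, beside 9.39% of all genes tested. Without replicate 2 of the intact 12-month group, a library of another age that widens the shared estimate of spread, 4 members were called higher at 8 months beside 194 of 14733 genes (1.32%). These were mt-Co1 (1.16 ± 0.19, SE, adjusted p = 0.0108), mt-Nd4 (1.02 ± 0.18, SE, adjusted p = 0.0138), mt-Nd5 (1.02 ± 0.19, SE, adjusted p = 0.0205) and mt-Nd1 (1.12 ± 0.25, SE, adjusted p = 0.0410), by edgeR on the log2 scale. The changes of mt-Cytb (1.33 ± 0.32, SE, adjusted p = 0.0524) and mt-Nd6 (1.11 ± 0.31, SE, adjusted p = 0.0874) were as large and did not pass. With the replicate block the 4 became 0, and the 194 genes called in all became 20.

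At 12 months the call rested on the library that stood apart. Over all libraries 425 genes (2.99%) were called, among them 3 members, all lower after injury by edgeR: mt-Rnr1 (-4.83 ± 1.10, SE, adjusted p = 0.0297), mt-Rnr2 (-4.32 ± 1.02, SE, adjusted p = 0.0328) and mt-Nd2 (-4.61 ± 1.16, SE, adjusted p = 0.0440). Without replicate 2, which leaves 2 intact libraries of that age, 0 members were called beside 1036 genes (7.03%), and 7 of the 11 had an unadjusted p below 0.05. The changes were then -0.86 ± 0.33 (SE, adjusted p = 0.125) for mt-Rnr1, -0.49 ± 0.23 (SE, adjusted p = 0.202) for mt-Rnr2 and -0.11 ± 0.27 (SE, adjusted p = 0.839) for mt-Nd2. Those of mt-Co1, mt-Nd4, mt-Nd5, mt-Nd6 and mt-Cytb lay between 0.57 and 0.97 with adjusted p of 0.0939 to 0.173. Whether the injury difference depended on age was tested jointly. For this interaction edgeR called 0 of 11 members and 0 of 14212 genes (0%), while 11 members and 1161 genes had an unadjusted p below 0.05. DESeq2 called 207 genes and 0 members, with the same gaps. Without replicate 2 it was 0 members, 6 of them with an unadjusted p below 0.05, and 9 of 14733 genes (0.0611%). A larger change at 8 months than at 1 or 12 months is thus not shown.

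**Figure D3:**
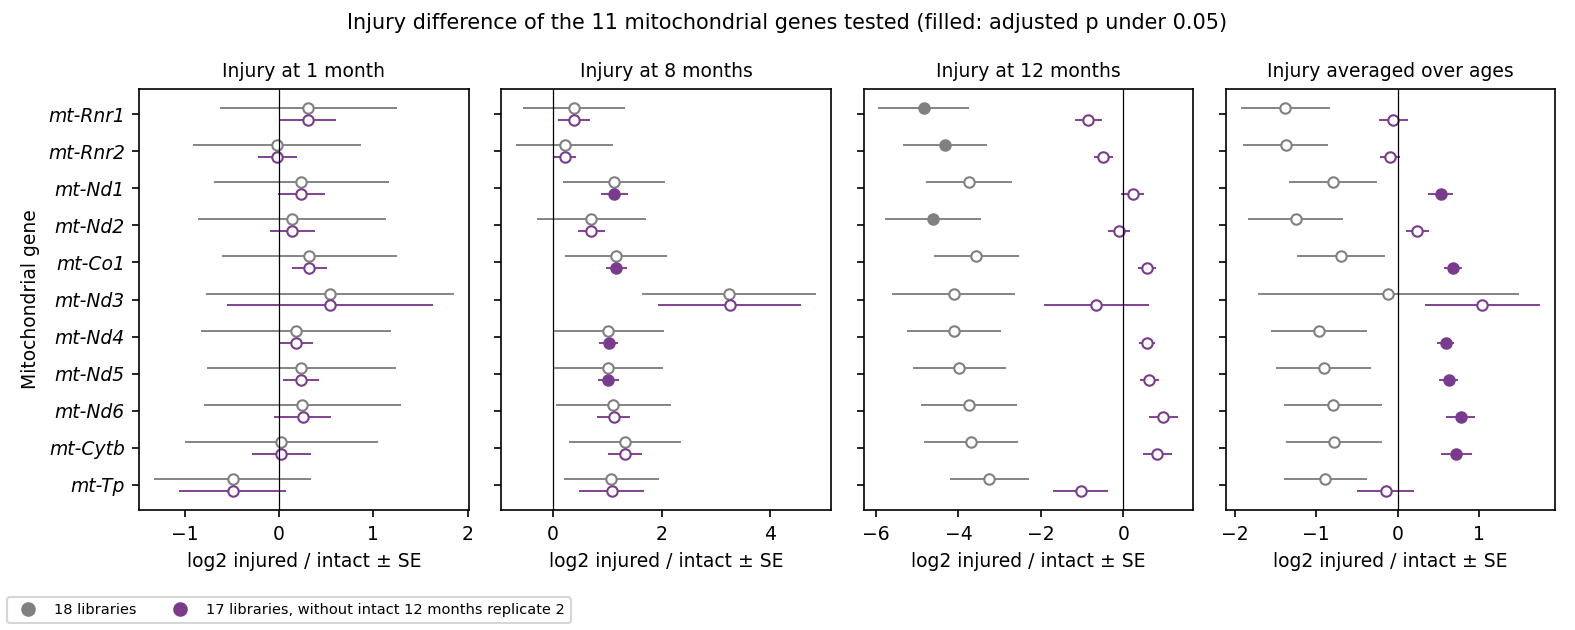
Injured against intact difference (log2 with SE, edgeR) of the 11 mitochondrial genes tested, at each age and averaged over ages, over 18 libraries (grey) and without replicate 2 of the intact 12-month group (purple); filled points passed an adjusted p of 0.05, and the horizontal axes differ between panels. The mRNA genes lie right of 0 at 8 months in both fits, and the 12-month and averaged panels change side for most of the mRNA genes when that library is left out.

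The make-up of the set was tested by scaling every library to its own sum of the 13 mitochondrial mRNAs. On that scale 0 of 11 members were called for injury over 18 libraries, none with an unadjusted p below 0.05, beside 512 genes (3.6%). Without replicate 2 of the intact 12-month group 3 members were called, all lower relative to the mRNA sum: mt-Rnr2 (-0.75 ± 0.13, SE, edgeR adjusted p = 0.000512), mt-Rnr1 (-0.69 ± 0.18, SE, adjusted p = 0.00806) and mt-Nd2 (-0.39 ± 0.12, SE, adjusted p = 0.0207). On this scale 6095 of 14733 genes (41.4%) were called, with a median of -0.58 over all genes, so a call by itself is common here. The 5 other well-covered mRNAs of the plus strand differed by -0.11 to 0.08 and mt-Nd6 by 0.12 ± 0.20 (SE, adjusted p = 0.659). These mRNAs are themselves part of the sum used for scaling. Their changes are thus held near 0 as a set, and small values here are no separate result.

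Within the mRNA sum mt-Co1 came first in each of the 18 libraries. Shares of mt-Co1 were 40.04% to 55.2% over the 18 libraries, those of mt-Nd5 13.3% to 19.3%, and those of mt-Nd1 9.85% to 17.05%. Shares of mt-Cytb were 8.05% to 14.1%, those of mt-Nd4 4.89% to 8.57%, those of mt-Nd2 2.90% to 6.30% and those of mt-Nd6 0.846% to 1.89%. The share of mt-Nd2 at 12 months was 5.48%, 6.30% and 5.50% in intact against 3.89%, 2.90% and 3.67% in injured libraries, and at 8 months 4.67%, 3.79% and 4.81% against 3.14%, 3.29% and 3.57%, apart at both ages. At 1 month it was 4.36%, 3.10% and 4.93% against 3.95%, 3.62% and 3.97%, with overlap. Replicate 2 of the intact 12-month group, far off in level, lay inside the range of the other libraries for mt-Nd1, mt-Nd5, mt-Nd6 and mt-Cytb, and held the lowest mt-Co1 share (40.04%) and the highest shares of mt-Nd2 and mt-Nd4.

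**Figure D4:**
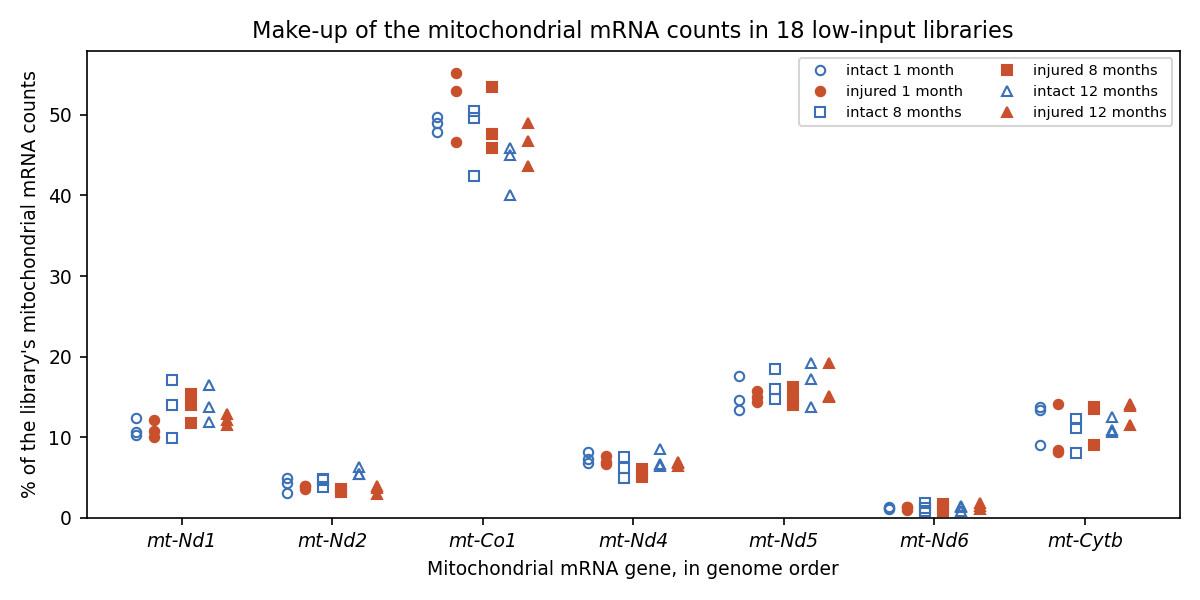
Share of the mitochondrial mRNA counts of a library taken by each of the 7 well-covered mRNA genes, in genome order; each point is 1 low-input library, open blue for intact and filled red for injured neurons, with the axis from 0. The gene mt-Co1 takes 40.04% to 55.2% in the 18 libraries, and mt-Nd2 is lower in injured than in intact libraries at 8 and 12 months.

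The mitochondrial genes of intact neurons differed between the ages. At 1 month the 37 genes took 2.06%, 2.44% and 2.69% of counts in the intact libraries. The share was 1.32%, 1.19% and 1.23% at 8 months, and at 12 months it was 3.55%, 40.5% and 2.999%. On this scale the 8-month libraries were the lowest and the 12-month ones the highest, without overlap. As a share of all endogenous counts, CT010467.1 included, the 8-month libraries were again the lowest (0.377% to 0.453%), but those of 12 months (0.574% to 2.501%) overlapped those of 1 month (1.13% to 1.47%). In injured neurons it was 2.44%, 2.58% and 2.69%, then 1.79%, 1.75% and 1.63%, then 3.52%, 2.28% and 2.19%, again lowest at 8 months. In the joint edgeR test over the 3 ages in intact neurons, 9 of 11 members were called beside 593 of 14212 genes (4.17%), and without replicate 2 of the 12-month group 9 of 11 beside 1697 of 14733 (11.5%). The exceptions were mt-Nd3 (adjusted p = 0.0517 in 18 and 0.285 in 17 libraries) and mt-Tp (0.130 and 0.0949).

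That library belongs to neither the 1-month nor the 8-month group. The adjusted p-values that follow are of the joint test over the 3 ages, and no pair of ages was tested by itself. In the fit of 17 libraries the log2 difference of 8 from 1 month was -1.68 for mt-Nd4 (joint edgeR adjusted p = 0.000538), -1.56 for mt-Cytb (0.0169) and -1.41 for mt-Co1 (0.00235). It was -1.33 for mt-Nd6 (0.0284), -1.28 for mt-Nd5 (0.00457), -1.26 for mt-Nd2 (0.0122), -1.06 for mt-Nd1 (0.0296), -1.03 for mt-Rnr1 (0.0143) and -0.80 for mt-Rnr2 (0.00457). The difference of 12 from 1 month changed with that library. With it the 9 genes were 3.43 to 4.62 higher on the log2 scale. Without it both rRNA genes were higher (0.69 for mt-Rnr2 and 0.64 for mt-Rnr1) while the 7 mRNA genes were lower, by 0.14 for mt-Nd1 to 0.77 for mt-Nd4. In injured neurons the same test called 0 members beside 31 genes (0.218%), with no member at an unadjusted p below 0.05, and without replicate 2 again 0 beside 42 (0.285%), with 5 members at an unadjusted p below 0.05. Scaled to the mitochondrial mRNA sum, 0 members were called between ages in intact neurons beside 1679 genes (11.8%). Without replicate 2 the 2 rRNA genes were called beside 7697 of 14733 genes (52.2%), mt-Rnr2 with a joint edgeR adjusted p of 0.00182 and mt-Rnr1 with 0.0170. Their values were 1.28 and 1.22 higher at 12 than at 1 month on the log2 scale, a difference not tested by itself. The intact libraries of 8 and 12 months also had more CT010467.1, with 64.2% to 93.8% of endogenous counts against 40.4% to 45.3% at 1 month; its part in the age difference was not tested.

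The tRNA genes, which are 59 to 75 bp long, had few counts in these libraries of 150 bp reads. Of 22 genes, 16 had any count, and the 8 genes of the minus strand held 560 of the 596 counts (94.0%) while the 14 of the plus strand held 36. The proline tRNA gene mt-Tp (15356 to 15422, minus strand), which lies next to the non-coding control region, alone had 417 (69.97%). Next were the glutamine tRNA gene mt-Tq with 60, the asparagine gene mt-Tn with 33 and the cysteine gene mt-Tc with 23, all of the minus strand. The plus-strand tRNA genes that sit between mt-Rnr1, mt-Rnr2 and mt-Nd1 held 1 (mt-Tv, for valine) and 9 (mt-Tl1, for leucine). The tested gene mt-Tp had 6 to 84 counts a library. Its levels were 6.24, 7.25 and 7.81 CPM in intact and 4.46, 7.33 and 3.53 CPM in injured libraries at 1 month. They were 2.75, 1.52 and 1.31 against 5.31, 2.99 and 3.63 CPM at 8 months, and 3.36, 15.6 and 3.91 against 2.70, 1.47 and 1.12 CPM at 12 months. The injured libraries were above the intact ones at 8 months and below them at 12 months, with overlap at 1 month. It was not called in any of the comparisons, with an averaged injury change of -0.15 ± 0.35 (SE, edgeR adjusted p = 0.843) in 17 and -0.89 ± 0.51 (SE, adjusted p = 0.347) in 18 libraries. Because strand was not used in counting, reads of these tRNA genes and of precursor RNA from the opposite strand cannot be told apart.

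In the average over ages, no nuclear gene listed for the same complexes was called higher after injury. The 11 mitochondrial genes tested all had negative changes over 18 libraries, and only over 17 libraries were 6 of them called higher. Of 71 listed nuclear subunits of complexes I, III, IV and V, all were tested, and for injury averaged over ages 0 were called higher by edgeR and 10 lower (30 with an unadjusted p below 0.05), beside 6.18% of all genes called in either direction, with a median log2 change of -0.45 beside 0.03 over all genes. Without replicate 2 of the intact 12-month group it was 0 higher and 36 lower, with a median of -0.54, beside 9.92% of all genes called. By age in that fit, 0 passed at 1 month (16 with an unadjusted p below 0.05, median -0.40) and 0 at 8 months (1 with an unadjusted p below 0.05, median 0.03), and 51 were lower at 12 months (median -1.28), beside 7.03% of all genes called at that age. With all libraries 11 were lower at 12 months, beside 2.99% of all genes. The lists were drawn up with earlier results of these data known, and the difference between the nuclear and the mitochondrial genes was not tested as such.

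By complex over 18 libraries, 6 of 36 complex I genes were lower, led by the accessory subunits Ndufa2 (-0.96 ± 0.15, SE, edgeR adjusted p = 0.000873) and Ndufa6 (-0.78 ± 0.14, adjusted p = 0.0023). The next were Ndufs6 (-0.80 ± 0.15, adjusted p = 0.00443) and Ndufc1 (-0.77 ± 0.18, adjusted p = 0.014). Over 17 libraries 20 of the 36 were lower. Of all genes tested, 6.18% were called in either direction over 18 and 9.92% over 17 libraries. Of 9 complex III genes 2 were lower over 18 and 4 over 17 libraries, the 2 being Uqcrq (-0.88 ± 0.15, adjusted p = 0.00192) and Uqcr11 (-0.58 ± 0.15, adjusted p = 0.0306). Of 15 ATP synthase genes 2 were lower over 18 and 6 over 17 libraries, the 2 being Atp5e (-1.17 ± 0.23, adjusted p = 0.00482) and Atp5k (-0.77 ± 0.17, adjusted p = 0.0126). Of 11 complex IV genes 0 passed over 18 libraries, with 5 at an unadjusted p below 0.05, and 6 were lower over 17. None of the 4 genes of complex II, which has no mitochondrially encoded subunit, passed in either fit.

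The nuclear machinery that keeps and reads mitochondrial DNA showed few calls. For injury averaged over ages, 0 of 9 tested genes of mitochondrial DNA replication and packaging, 0 of 8 of transcription, 0 of 20 of RNA processing, 0 of 8 of rRNA modification and 0 of 8 regulators of mitochondrial biogenesis passed edgeR's test over 18 libraries, with medians from -0.13 to 0.48. In that order, 1, 0, 4, 0 and 2 of them had an unadjusted p below 0.05. DESeq2 was not summarised for these lists. Over 17 libraries Tfam, the protein that packages mitochondrial DNA and starts its transcription, was lower by -0.75 ± 0.23 (SE, edgeR adjusted p = 0.0477). So were the processing genes Hsd17b10 (-0.93 ± 0.19, adjusted p = 0.00581) and Grsf1 (-0.46 ± 0.12, adjusted p = 0.0257), while Tfam stands in 2 of the lists. These calls were 1 of 9 replication and packaging genes, 2 of 20 processing genes and 1 of 8 biogenesis regulators. Of all genes, 9.92% were called over 17 libraries, so these counts lie near the general share. Over 18 libraries that share was 6.18%. Of 17 mitochondrial tRNA synthetases 1 was lower over 18 libraries, Lars2 for leucine (-2.73 ± 0.70, SE, adjusted p = 0.0289). It did not pass over 17 (-1.26 ± 0.40, adjusted p = 0.0621), and it took 31.5% of the counts outside CT010467.1 in replicate 2 of the intact 12-month group. Of the 10 nuclear features that run parallel to mitochondrial genes, Gm28439 alone was tested, with a change of 0.79 ± 0.47 (SE, adjusted p = 0.306) over 17 libraries.

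Single cells varied far more than libraries. With cells under 10000 counts outside CT010467.1 left out, 17 of 18 intact and 19 of 21 injured cells remained at 1 month and 8 of 8 and 19 of 22 at 1 year. The mitochondrial share of a cell ran from 0.0840% through a median of 2.87% to 51.1% in intact and from 0.169% through 1.503% to 68.3% in injured cells at 1 month. At 1 year it ran from 0.0828% through 3.83% to 43.3% in intact and from 0.305% through 1.82% to 35.5% in injured cells. The ranges of all 4 groups overlap almost wholly, and the injured median was below the intact one at both ages. The median mRNA share was also lower in injured cells, at 0.31% against 0.53% in intact cells at 1 month. At 1 year it was 0.47% against 0.75%. The higher mRNA share of injured low-input libraries at 1 and 8 months thus did not recur in these medians, whose difference was not tested. A mitochondrial share above 10% was found in 2 intact and 2 injured cells at 1 month and in 1 intact and 6 injured cells at 1 year. The 4 such cells of 1 month were nearly all spike-in: ERCC took 94.3% to 99.5% of their counts, and they had 458 to 1141 genes detected against a median of 9867 in intact and 11434 in injured cells. Without these 4 the highest share at 1 month was 7.77% in intact and 9.56% in injured cells, and the medians were 2.70% and 1.41%. The 7 cells of 1 year had 6568 to 14511 genes detected and at most 7.85e-05% ERCC. All cells of 1 year kept here had next to no ERCC, at most 0.000469% in intact and 0.00168% in injured cells. The ERCC share therefore says nothing about the quality of these 7.

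Pooled over the cells of a group, the share was 3.38% (exact 95% interval 3.38% to 3.39%) for intact and 2.04% (2.04% to 2.04%) for injured cells at 1 month, and 7.38% (7.38% to 7.39%) and 6.36% (6.35% to 6.36%) at 1 year. The order at 1 year turned with 1 intact cell, which held 65.2% of the mitochondrial counts of its group: without it the intact share was 2.89% (2.89% to 2.90%). Without the 6 injured cells above 10% the injured share was 1.98% (1.98% to 1.99%). At 1 month, without the 4 cells above 10%, which held mostly ERCC counts, the shares were 2.896% and 1.87%. The Clopper-Pearson intervals cover counting error only, and because the labels tie no cell to an animal, a group of cells stands for 1 sample, and differences between groups were not tested. The median depth outside CT010467.1 was 315783 counts for intact and 2406490 for injured cells at 1 month and 7145020 and 3765180 at 1 year, so the groups also differ in depth. Summed Atf3 and Sprr1a had medians of 36.5 CPM in intact and 87.3 CPM in injured cells at 1 month and of 51.7 and 31.99 CPM at 1 year, which does not separate the cell groups as it did the libraries.

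The ratio of rRNA to mRNA counts in the cells had no single order between conditions. Its median was 5.24 in intact and 6.59 in injured cells at 1 month and 3.37 and 3.23 at 1 year. Pooled counts gave 4.89 and 4.54 at 1 month and 3.31 and 2.78 at 1 year, lower in injured cells at both ages. Among cells with at least 1000 mitochondrial mRNA counts (9 intact and 16 injured at 1 month, 8 and 15 at 1 year), the median mt-Co1 share of the mRNA was 40.1% in intact and 49.2% in injured cells at 1 month and 44.1% and 49.8% at 1 year. The median mt-Nd2 share was 6.65% and 4.74% at 1 month and 5.23% and 5.29% at 1 year. That of mt-Nd6 was 1.64% and 1.09% at 1 month and 1.84% and 1.11% at 1 year.

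**Figure D5:**
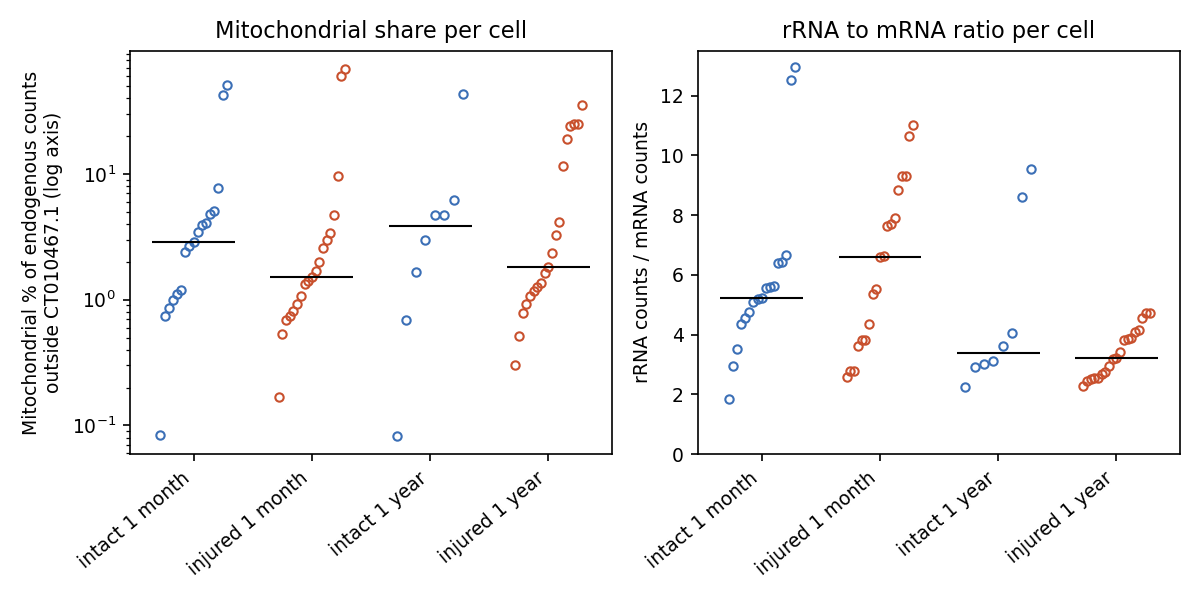
Mitochondrial share of counts outside CT010467.1 per cell (log axis) and ratio of rRNA to mRNA counts per cell (axis from 0), for the cells with at least 10000 such counts in the 4 single-cell groups; each point is 1 cell, blue for intact and red for injured neurons, in rising order within its group, and the line is the median. Shares run from 0.0828% to 68.3%, and the groups overlap. The 2 highest intact and the 2 highest injured cells at 1 month held mostly ERCC counts, as did some cells with lower shares.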

How the data were processed

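RNA counts of 18 low-input libraries and 69 single cells were analysed, taken from 136 RNA samples that carry 87 library names; 94 samples of bisulfite sequencing are not analysed here. In the deposited table the authors gave each gene's unnormalised count of read pairs, made with featureCounts 1.5.2 (paired, no strand, exons joined by gene name, GENCODE vM16 with ERCC spike-ins, multiple mappers not counted, per the file headers); its exon length column (unit: other, in bp) was deposited with it. Trim Galore and STAR on mm10 come from the submitters' processing notes. Depth was 7531967 to 19443627 endogenous counts a low-input library.

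Groups follow the labels. With ERCC features left out, genes passing filterByExpr were scaled by TMM and fitted with edgeR 4.0.16 (R 4.3.3, robust quasi-likelihood, 6 group means, 12 residual degrees of freedom), adjusted over all genes tested and called under 0.05. A second fit set the library size to the sum of mitochondrial mRNAs. Tests are two-sided, and scripts were tested on simulated data. Alternatives were RLE, nuclear TMM and ERCC scaling, no filter, DESeq2 1.42.0, a replicate block and leaving out libraries. Leaving out each library in turn was planned. Giving the fit without replicate 2 of the intact 12-month group beside the main fit was chosen after seeing the data. So were its own alternatives, the fit within pairs at 1 month and the leaving out of single cells.

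All mRNA and rRNA genes and tRNA genes passing the filter are named; of other lists, up to 4 called genes by adjusted p. The members and lists were chosen with earlier results of these data known. Replicate numbers were checked for pairing over 1669 genes: deviations of same-numbered intact and injured libraries correlated by 0.188, 0.309 and 0.478 at 1 month, by -0.53, -0.35 and 0.07 at 8 months and by -0.10, -0.10 and 0.09 at 12 months, so only at 1 month were they taken to pair libraries, which rests on these correlations alone. RefSeq (GRCm38.p6) was used for gene positions; no sequence of a member was at hand.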

Additional observations from a re-analysis of the deposited data

Results flagged for a closer look

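One of the 8 intact cells of 1 year lay far from the other 7. Its mitochondrial share of counts outside CT010467.1 was 43.3%, against 0.0828% to 6.26% in the others. Its mRNA share was 10.7% (others 0.0211% to 1.45%) and its rRNA share 32.5% (others 0.0615% to 5.02%), while its ratio of rRNA to mRNA was not set apart. It had 12051 genes detected against a group median of 15553, and without it the pooled mitochondrial share of the group was 2.89% in place of 7.38%, below the 6.36% of injured cells. This was the only group of a size that the rule for a single distant value covers, with 4 measures looked at. The rule is made for normally distributed values and was used on the linear scale. Shares of single cells spread widely, and each other group also held cells above 10%. No rate of chance flags is therefore given, and the 3 measures are parts of one another.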

How the results depend on the processing

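The 6 mRNA genes from mt-Co2 to mt-Nd4l and all tRNA genes but mt-Tp had too few counts to compare, although mt-Nd3 passed the filter. The parts of depth and of multiple mapping in these low counts were not tested. Over 18 libraries the number of members called stayed within 1.5 times under RLE and nuclear TMM scaling. Scaled to ERCC totals, which moved the median of all genes by 2.90 for averaged injury, 5.36 for injury at 12 months and -4.31 for 12 against 1 month in intact neurons, 11 members were called for averaged injury and 10 at 12 months. On that scale the 12-month injury changes turned to 2.91 for mt-Rnr1, 3.41 for mt-Rnr2 and 3.46 for mt-Nd2. The changes from 1 to 12 months in intact neurons turned to -2.21 for mt-Rnr1, -2.27 for mt-Rnr2, -3.01 for mt-Nd1, -2.53 for mt-Nd2, -3.44 for mt-Co1, -3.06 for mt-Nd4, -2.95 for mt-Nd5, -3.01 for mt-Nd6 and -3.21 for mt-Cytb. Set against the shift of the median, averaged injury left mRNA changes of 2.68 to 3.09 near it over 18 libraries and 3.10 to 3.48 above its 2.74 over 17. Without a filter 8 members were called for averaged injury, 1 at 8 months, 9 at 12 months and 9 for the interaction. DESeq2 called 2 for age in intact neurons, having no adjusted p for 9 of 11. The number of all genes called over 18 libraries was 878 for averaged injury in the report's test, 1722 without a filter, 1548 with DESeq2, 329 with the block and 13493 on the ERCC scale. In the same order it was 33, 276, 123, 5 and 50 for injury at 1 month. For injury at 8 months the numbers were 136, 661, 533, 29 and 631, and for 12 months 425, 937, 1231, 58 and 13675. For age in intact neurons it was 593, 1951 without a filter, 1960 with DESeq2 and 12158 on the ERCC scale. The causes of these differences were not tested.

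Left out one at a time, libraries gave 0 to 6 members called for averaged injury, 0 to 4 at 8 months, 0 to 10 at 12 months and 3 to 10 for age in intact neurons, and, relative to mitochondrial mRNA, 0 to 3 for injury and 0 to 2 for age. At 12 months it was 0 without replicate 2 of the intact or any 1 of the 3 injured libraries of that age, 1 without replicate 3 of the injured 1-month group and 10 without intact replicate 1 or 3. The 6, the 4 at 8 months and, relative to mitochondrial mRNA, the 3 and 2 came without that same replicate 2. For averaged injury it was 1 without intact 12-month replicate 1 or 3, and for age 3 without replicate 2 of the intact 8-month group. The ranges of the change from 1 to 12 months in intact neurons were -0.14 to 4.37 for mt-Nd1, -0.18 to 4.87 for mt-Nd2, -0.70 to 3.98 for mt-Co1, -0.77 to 4.46 for mt-Nd4, -0.56 to 4.60 for mt-Nd5, -0.73 to 4.54 for mt-Nd6 and -0.76 to 4.31 for mt-Cytb, each lowest without replicate 2.

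Over 17 libraries, without that library, 13556 of 14733 genes were called in all for averaged injury under ERCC scaling. It was 2346 of 28353 without a filter and 2282 of 14733 with DESeq2, and at 8 months 1007, 981 and 808 in the same order. The 6 members called for averaged injury were 6 under RLE, nuclear TMM, no filter and DESeq2 and 11 under ERCC scaling. The 4 members at 8 months became 1 under ERCC scaling and 6 under no filter and DESeq2. Leaving out a further library gave 3 to 6 and 1 to 5; it was 3 for averaged injury without replicate 3 of the intact 12-month group, and at 8 months 1 without injured 8-month replicate 2 and 2 without replicate 3. The averaged log2 changes of the 7 well-covered mRNAs stayed above 0 in each of these 17-library fits, from 0.18 to 0.91 when a further library was left out.

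With a replicate block (the replicate number within age as a factor) the members called at 12 months went from 3 to 0, and over 17 libraries those for averaged injury from 6 to 2 and those at 8 months from 4 to 0, with mRNA changes of 0.31 to 0.83 and 0.74 to 1.34. The number of all genes called over 17 libraries fell from 1462 to 296 for averaged injury and from 194 to 20 at 8 months. Relative to mitochondrial mRNA over 17 libraries, the members called for injury went from 3 to 2 and all genes called from 6095 to 3104. With the block the number stayed at 0 for 1 month and the interaction over 18 and 17 libraries, for 12 months over 17, and for averaged injury on both scales and 8 months over 18. At 1 month 6 of 6 libraries correlated best with their own number, at 8 months 1 and at 12 months 2, which is a hint from the data and not from the design.

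As a share of all endogenous counts, the log2 ratio of the mitochondrial share, injured to intact, was 0.26 at 1 month, 1.08 at 8 months and 0.49 at 12 months, where it was negative outside CT010467.1, and against ERCC counts it was 1.74, 2.60 and 3.75. From 1 to 8 months it was -1.71 and -3.24 in intact and -0.89 and -2.39 in injured neurons on these 2 scales. From 1 to 12 months the intact share of all endogenous counts overlapped, at 1.13% to 1.47% and 0.574% to 2.501%.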
